A study of Mus musculus with 24 samples.

Results

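The ABCC genes encode the multidrug resistance-associated proteins, a subfamily of ATP-binding cassette transporters, and 6 of them were followed here in endothelial cells of the mouse brain: Abcc1, Abcc3, Abcc4, Abcc5, Abcc6 and Abcc10. They were chosen by gene symbol among the 53465 genes listed, each matched exactly 1 entry, and all 6 were among the 15493 genes with at least 5 normalized reads in 6 or more control or 6 or more mutant libraries. Each of the 24 libraries was made from the CD31-positive cells of 1 mouse. The 12 control mice were Bmal1fl/fl, in which an exon of the clock gene Bmal1 (listed as Arntl) is flanked by recombination sites but kept. The 12 mutant mice were Bmal1fl/fl; Tie2cre, in which Cre under the Tie2 promoter removes that exon from endothelial cells; this promoter is also active in blood cell lineages. Male and female mice on a 12 h light and 12 h dark cycle were used, and 2 mice of each genotype were taken every 4 h from ZT2 to ZT22 (zeitgeber time, in hours after lights on). The age of the mice is not given in the sources used here.

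These proteins use ATP to move organic anions, drugs and their glutathione, glucuronide or sulfate conjugates out of cells. At the blood-brain barrier, transporters of this kind return compounds to the blood or keep them out of the brain. BMAL1 with its partner CLOCK binds E-box sequences in DNA and drives the daily rhythm of many genes. The question put to the 6 genes was therefore how high they stood in these cells, whether they changed over the day, and whether either depended on Bmal1.

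The promoter of Abcc4, the member with the highest level below, is shown because it holds the E-box that BMAL1 recognizes. The 250 bases before the annotated start of Abcc4 are chr14:118706220-118706469 of GRCm38.p6, minus strand, taken from RefSeq and printed 5′ to 3′ along the gene with the E-box CACGTG in capitals.

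Abcc4 upstream: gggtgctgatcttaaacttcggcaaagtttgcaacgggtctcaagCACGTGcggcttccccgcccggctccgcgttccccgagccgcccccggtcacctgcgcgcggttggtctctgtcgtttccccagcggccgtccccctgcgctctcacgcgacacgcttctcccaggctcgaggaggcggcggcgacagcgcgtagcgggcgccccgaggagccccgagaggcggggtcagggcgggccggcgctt

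The E-box lies 205 to 200 bases before the start, and 6.02% of the 32851 windows of the same length in the RefSeq table hold one. The same window holds the core of the antioxidant response element, TGACNNNGC, 25 to 17 bases before the start, a motif that 10.2% of windows hold. Both strands were searched for these motifs and for CACGTT, TTATGTAA and AGGTCA, which 3.85%, 0.819% and 14.0% of windows hold. Of the members, Abcc4, Abcc5 and Abcc10 had windows in the table, 5 in all, and the window of Abcc5 held none of the 5 motifs. Of the 2 windows of Abcc10, one held AGGTCA and TGACNNNGC in overlapping positions and the other held AGGTCA alone. The second window of Abcc4 held TGACNNNGC alone. A match is a run of letters and not a measured binding site.

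The deposited values are whole numbers of reads per gene that the authors normalized to similar totals, between 6136404 and 6648311 per library, so the original depth is no longer in them. Arntl, the targeted gene, was at 1 to 22 reads in the 4 controls of ZT10 and ZT14 and at 120 to 354 in the mutants of those times, but at ZT2 its mean was higher in controls, at 452.5 against 251 reads. Its means were 78.0 in controls and 178.5 in mutants at ZT6, 264 and 258.5 at ZT18, and 351 and 223.5 at ZT22. The reads are summed over the whole gene, so the removed exon could not be checked on its own. Of 8 endothelial marker genes, all were detected, with summed reads of 57019 to 98086 per library. The 8 ZT6 and ZT18 libraries stood apart from the other 16: summed reads of 7 microglia markers were 621 to 1184 against 6968 to 19170, and the mitochondrial share was 2.68% to 3.90% against 5.78% to 17.4%. These 8 carry consecutive library numbers in both genotypes, so time and library series cannot be told apart. Control ZT2 library 1 and both mutant ZT14 libraries form another consecutive run, with numbers apart from all the others. For mutant ZT14, too, time and library series cannot be told apart.

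By mean over the 12 control libraries, Abcc4 was by far the most abundant member and Abcc10 the least. In the 4 controls of ZT6 and ZT18, Abcc3 had the lowest mean, 2.28 ± 1.65 against 2.92 ± 1.87 reads per kb for Abcc10 (SD). In mutants of those times Abcc3 had 0 to 13 reads and Abcc10 26 to 110. Abcc4 (MRP4) exports cyclic nucleotides, prostaglandins and nucleotide-like drugs, and in controls it stood at 516 ± 45.1 normalized reads per kb of exon (SD, n = 12). That is a higher level per kb than 97.8% of the genes tested. Abcc6, best known for its loss in pseudoxanthoma elasticum, an inherited calcification of soft tissue, followed at 61.6 ± 14.1 reads per kb. Abcc5 (MRP5), an exporter of cyclic nucleotides and other organic anions, was at 55.1 ± 8.31 reads per kb. Abcc3 (MRP3), which carries glucuronides and bile salts, averaged 22.6 ± 20.2 reads per kb, with an SD almost as large as the mean. Abcc1 (MRP1), an exporter of glutathione conjugates that include cysteinyl leukotrienes, was at 8.69 ± 3.18 reads per kb. Abcc10 (MRP7), a transporter of lipophilic drugs such as taxanes, was at 4.69 ± 3.06 reads per kb, above 14.4% of the genes tested.

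In this order of levels per kb, Abcc4 was above Abcc6 in 12 of 12 control libraries, with a mean log2 ratio of 3.10 ± 0.35 (SD; exact permutation test over all sign patterns, two-sided, adjusted p = 0.00122 over the 5 neighbouring pairs). Abcc6 and Abcc5 did not differ beyond their spread, with Abcc6 higher in 8 of 12 libraries (exact permutation test, adjusted p = 0.375). Abcc5 was above Abcc3 in 12 of 12 libraries (exact permutation test, adjusted p = 0.00122). Abcc3 and Abcc1 did not differ over the 12 libraries (exact permutation test, adjusted p = 0.375), but they split by library set. Abcc3 was above Abcc1 in 8 of 8 control libraries outside ZT6 and ZT18 and in 0 of 4 of those times. In the 8 libraries Abcc3 averaged 32.8 ± 16.8 and Abcc1 8.43 ± 3.83 reads per kb (SD, n = 8), and in the 4 libraries they averaged 2.28 ± 1.65 and 9.19 ± 1.53 (SD, n = 4). This split was seen in the data and is given without a test. Abcc1 was above Abcc10 in 10 of 12 libraries (exact permutation test, adjusted p = 0.00488), and in 6 of the 8 outside ZT6 and ZT18, a subset added after the data were seen (exact permutation test, adjusted p = 0.0586). The places of Abcc5 and Abcc6 depended on the length used: scaled by the longest transcript, Abcc5 was above Abcc6 in 11 of 12 libraries (exact permutation test, adjusted p = 0.00183). That length raised the level of Abcc1 2.22-fold, to 19.3 ± 7.07 reads per kb, and that of Abcc5 1.84-fold, to 101 ± 15.3 (SD, n = 12 each). It also turned the mean log2 ratio of Abcc3 over Abcc1 from 0.54 to -0.42, with Abcc3 higher in 7 of 12 libraries (exact permutation test, adjusted p = 0.496). In the 12 mutant libraries Abcc5 also came before Abcc6, in 7 of 12 libraries (exact permutation test, adjusted p = 0.150), and Abcc1 and Abcc10 did not separate (exact permutation test, adjusted p = 0.389).

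**Figure D1:**
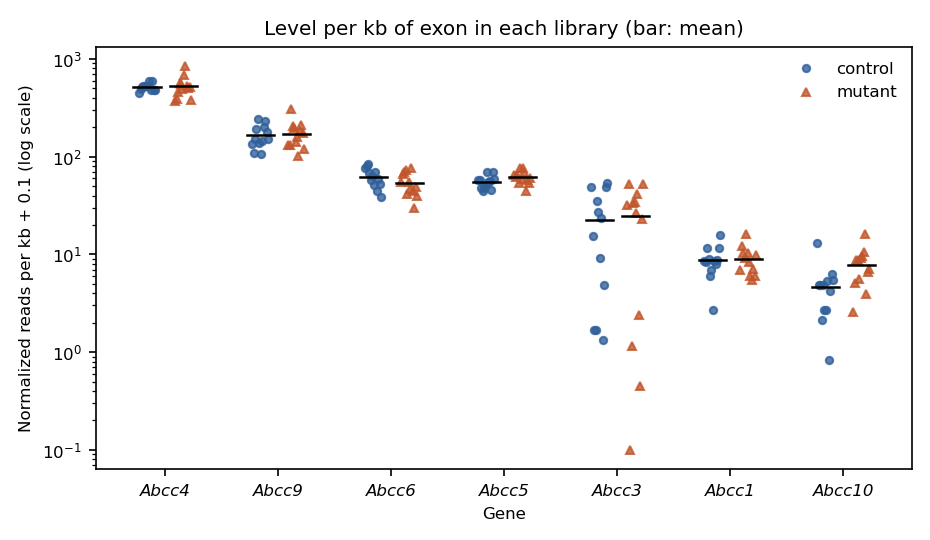
Normalized reads per kb of exon, plus 0.1 and on a log scale, for the 6 ABCC genes and Abcc9 in each of 12 control (circles) and 12 mutant (triangles) libraries, with the mean as a bar. Abcc4 lies highest in both genotypes, at 516 and 525 reads per kb on average, and the Abcc3 points spread down to 0 reads.

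The other ABCC genes were read alongside. Abcc9, the sulfonylurea receptor that forms potassium channels in pericytes together with Kcnj8, had 842 to 2558 reads in the 24 libraries, or 165 ± 44.7 reads per kb in controls (SD, n = 12). Abcc2, the canalicular exporter of hepatocytes, was listed at 0 in every library. Cftr, a chloride channel, had 80 reads in control ZT14 library 1, at most 9 in 4 other control libraries and 0 elsewhere. Abcc8, the sulfonylurea receptor of pancreatic beta cells, had reads in 7 libraries, at most 16, and Abcc12 had 4 reads in each of 2 libraries. Of these 5 genes, Abcc9 alone passed the filter on low reads.

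The test by genotype called none of the 6 genes, and the largest estimated difference over all libraries was 1.74-fold, for Abcc10. Of all genes tested, 0.271% were called by genotype at an adjusted p under 0.05 (quasi-likelihood fit of edgeR, time points as a factor, Benjamini-Hochberg adjustment). By this rule 0 of 6 members were called, 1 had an unadjusted p under 0.05, as 6.95% of all genes had, and DESeq2 also called 0 with 1 under that p.

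Abcc10 had the largest genotype difference of the 6. Control mice of ZT2 had 89 and 33 reads, those of ZT6 33 and 14, those of ZT10 33 and 18, those of ZT14 18 and 36, those of ZT18 5 and 28, and those of ZT22 42 and 37. Mutant mice of ZT2 had 17 and 34 reads, those of ZT6 60 and 60, those of ZT10 38 and 62, those of ZT14 65 and 71, those of ZT18 110 and 26, and those of ZT22 45 and 48. The mutant mean was above the control mean at ZT6, ZT10, ZT14, ZT18 and ZT22 and below it at ZT2, and the 12 and 12 values overlap widely. Over all times Abcc10 was 1.74-fold higher in mutants, a log2 fold change of 0.80 (SE 0.36, 95% interval 0.05 to 1.54), with an unadjusted p = 0.0363 (n = 24) and an edgeR adjusted p = 0.656. With 1 library left out the log2 fold change lay between 0.56, without mutant ZT18 library 1 (unadjusted p = 0.119, n = 23), and 0.98, without control ZT2 library 1 (unadjusted p = 0.00725, n = 23), and the lowest edgeR adjusted p was 0.416. Within the 8 ZT6 and ZT18 libraries the log2 fold change was 1.72 (95% interval 0.54 to 2.90, edgeR adjusted p = 0.670). Within the 16 libraries of the other times it was 0.32 (95% interval -0.49 to 1.13, edgeR adjusted p = 0.977). With the i5 index, a library barcode of which 2 were used, as a covariate, it was 1.22 (edgeR adjusted p = 0.455). At ZT2 and ZT10 the index differed between all controls and all mutants, and at each other time all libraries shared the same index. That fit therefore draws the genotype difference from ZT6, ZT14, ZT18 and ZT22 alone, and leaves out ZT2, where the control mean was higher. Whether the values within the 8 and within the 16 libraries differ was not tested. Abcc10 shares 51 exonic bases with Dlk2 on the opposite strand, a gene with at most 4 reads in a library.

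Abcc5 and Abcc6 had smaller differences of opposite sign, and neither passed the threshold. Abcc5 had 479 to 744 reads in controls (median 595) and 470 to 824 in mutants (median 649). Its log2 fold change was 0.16 (SE 0.09, 95% interval -0.02 to 0.34, edgeR adjusted p = 0.775). Abcc6 had 218 to 475 reads in controls (median 350.0) and 168 to 432 in mutants (median 295), and its log2 fold change was -0.21 (SE 0.11, 95% interval -0.44 to 0.01, edgeR adjusted p = 0.748). For both genes the control and mutant ranges overlap over most of their length. Without the ZT6 and ZT18 libraries the log2 fold change was 0.14 for Abcc5 and -0.20 for Abcc6.

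For Abcc4, Abcc1 and Abcc3 the estimate over all libraries was close to 0. Abcc4 had 2848 to 3811 reads in controls (median 3338.5) and 2386 to 5374 in mutants (median 3243). Its log2 fold change of -0.01 had a 95% interval of -0.15 to 0.14, the narrowest of the 6, and without the ZT6 and ZT18 libraries it was also -0.01. The SD of the mutants, 855 reads, was larger than that of the controls, 288 reads. Abcc1 had 39 to 234 reads in controls and 81 to 245 in mutants, and its log2 fold change was 0.05 (95% interval -0.35 to 0.46). The sign turned with the i5 index as a covariate (-0.24, 95% interval -0.70 to 0.22). That fit leaves out the genotype differences at ZT2, with means of 126 reads in controls and 143.5 in mutants, and at ZT10, with 96 and 199. Abcc3 had a log2 fold change of -0.04 (95% interval -0.60 to 0.53), which was 0.24 (95% interval -0.28 to 0.77) without the ZT6 and ZT18 libraries and -1.33 (95% interval -4.07 to 1.42) within them, where its reads are few. For these 3 genes the intervals over all 24 libraries lie within -0.60 to 0.53.

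**Figure D2:**
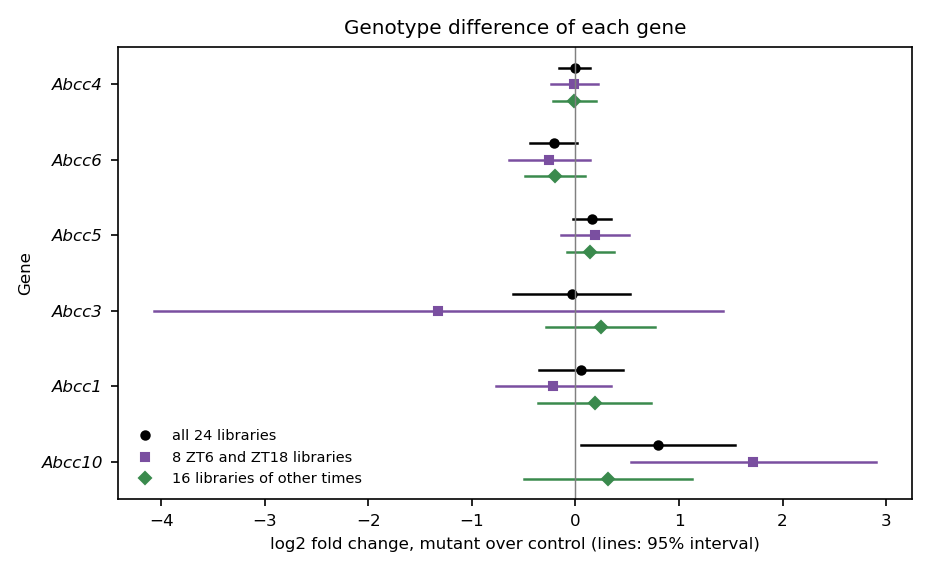
Log2 fold change of mutants over controls for each of the 6 genes with its 95% interval (lines), from all 24 libraries (circles), the 8 ZT6 and ZT18 libraries (squares) and the 16 libraries of the other times (diamonds). Abcc10 stands highest in all 3 fits, at 0.80, 1.72 and 0.32, and its interval from the 16 libraries crosses 0. The intervals of the other 5 genes cross 0 in all 3 fits.

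Over the day, none of the 6 genes passed the q threshold of 0.6 used in the study for meta2d, which combines JTK_CYCLE and Lomb-Scargle tests for a 24-h period. In controls, 0.31% of all genes passed it, and 0 of 6 members. In mutants, 0.0387% of all genes passed it, and again 0 of 6 members. At an unadjusted meta2d p under 0.05 there were 0 members in controls, where 2.43% of genes had one, and 1 in mutants, where 2.27% had one. An edgeR fit of a 24-h cosine called 0 of 6 in either genotype at an adjusted p under 0.05, as it called 0.0904% of all genes in controls and 0.0% in mutants. At an unadjusted p under 0.05 it had 0 in controls, where 4.43% of genes had one, and 1 in mutants, where 4.16% had one.

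Abcc4 had the lowest meta2d p of the 6 in both genotypes. Mutant mice of ZT2 had 2386 and 2497 reads, those of ZT6 2940 and 3652, those of ZT10 3525 and 3166, those of ZT14 4410 and 5374, those of ZT18 3376 and 3212, and those of ZT22 3274 and 2447. Control mice of ZT2 had 2848 and 3165 reads, those of ZT6 3326 and 3351, those of ZT10 3378 and 3389, those of ZT14 3354 and 3811, those of ZT18 3047 and 3781, and those of ZT22 3098 and 3031. In both genotypes the ZT14 mean was the highest and the ZT2 mean the lowest, at 3582.5 against 3006.5 reads in controls and 4892 against 2441.5 in mutants. Both mutant ZT14 libraries belong to a separate run of library numbers, so time and library series cannot be told apart there. The fitted cosine peaked at ZT 13.0 with a relative amplitude of 8.10% in controls and at ZT 13.4 with 27.1% in mutants. The meta2d p was 0.103 in controls and 0.0395 in mutants (n = 12 each), with q = 1.0 in both. After TMM rescaling of the counts the p was 0.00383 in controls and 0.0233 in mutants (n = 12 each), with q = 0.748 and 1.0. The control ZT14 libraries had the lowest TMM factors of all libraries, 0.873 and 0.896, and the highest mitochondrial shares, 17.4% and 15.3%. Their part in the smaller control p was not tested. With 1 library left out the meta2d p lay between 0.0181 and 0.228 in controls and between 0.0127 and 0.162 in mutants (n = 11 each). After centring within the ZT6 and ZT18 libraries and within the others it was 0.134 and 0.0323 (n = 12 each). The edgeR fit of a cosine gave p = 0.0774 in controls and 0.00241 in mutants (n = 12 each), with an edgeR adjusted p = 0.764 in mutants. The difference in rhythm between the genotypes gave p = 0.138 (n = 24) and an adjusted p of 1.00 in edgeR's test of genotype by cosine and sine.

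Abcc1 was the member with the smallest p for a rhythm difference. Control mice of ZT2 had 128 and 124 reads, those of ZT6 172 and 134, those of ZT10 89 and 103, those of ZT14 39 and 127, those of ZT18 119 and 130, and those of ZT22 174 and 234. Mutant mice of ZT2 had 104 and 183 reads, those of ZT6 155 and 137, those of ZT10 245 and 153, those of ZT14 126 and 90, those of ZT18 81 and 106, and those of ZT22 89 and 146. The highest mean was at ZT22 in controls (204.0 reads) and at ZT10 in mutants (199 reads). The rhythm difference gave p = 0.0271 (n = 24) and an edgeR adjusted p of 1.00. With the ZT6 and ZT18 libraries as a covariate the p was 0.0254 (n = 24), with an edgeR adjusted p of 0.746. Of all genes, 0.0% were called for a rhythm difference at an adjusted p under 0.05, and 4.26% had an unadjusted p under 0.05. Of the 6 members 0 were called and 1 had such a p, and DESeq2 gave the same counts, 0 and 1. Without control ZT22 library 2, which also held the highest summed reads of choroid plexus and ependyma markers (66854, against 1869 to 19080 in the other 23 libraries), the p was 0.0930. Without mutant ZT10 library 1 it was 0.114, and without mutant ZT22 library 1 it was 0.0564. The part of choroid plexus RNA in the Abcc1 values was not tested.

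Abcc6 had its highest mean at ZT2 in controls and at ZT6 in mutants and did not pass the threshold. In mutants the ZT14 mean, 349.5 reads, was above the ZT2 mean, 343.5. Its means lay between 447 reads at ZT2 and 258.5 at ZT22 in controls, and between 403 at ZT6 and 210.5 at ZT18 in mutants. The fitted peak was at ZT 5.74 with a relative amplitude of 22.0% in controls and at ZT 6.47 with 22.1% in mutants, with meta2d p = 0.188 and 0.368 (n = 12 each). With 1 library left out the p lay between 0.0526 and 0.581 in controls and between 0.0127, without mutant ZT14 library 2, and 0.857 in mutants (n = 11 each), with q = 1.0 throughout. The rhythm difference had p = 0.973 (n = 24). Abcc5 had fitted amplitudes of 10.2% in controls and 10.6% in mutants, with meta2d p = 0.802 and 0.976 (n = 12 each) and a rhythm difference p = 0.110 (n = 24). With 1 library left out its meta2d p lay between 0.0682 and 0.978 in controls and between 0.479 and 0.9999 in mutants (n = 11 each). Its rhythm difference p then lay between 0.0268 and 0.235. Abcc10 had meta2d p = 0.968 in controls and 0.340 in mutants (n = 12 each) and a rhythm difference p = 0.0987 (n = 24). With 1 library left out this rhythm difference p lay between 0.0402 and 0.331. Abcc3 had meta2d p = 1.00 in both genotypes (n = 12 each) and a rhythm difference p = 0.930 (n = 24).

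**Figure D3:**
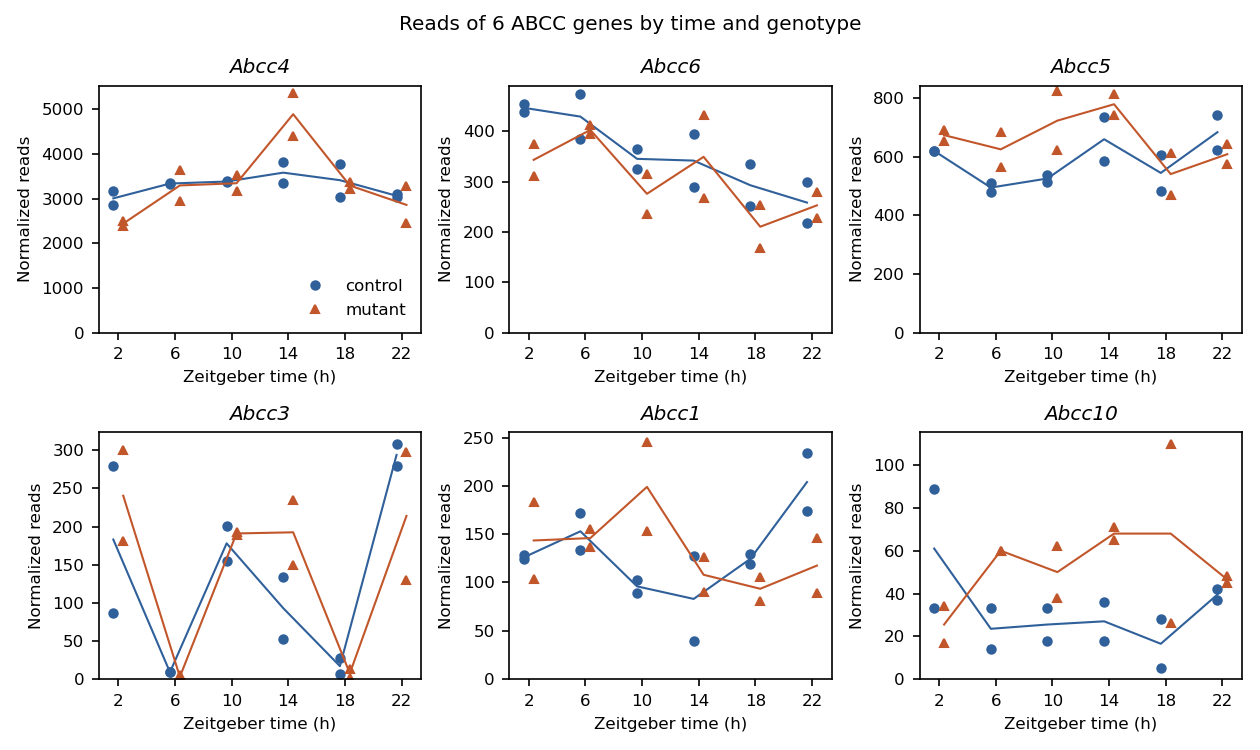
Normalized reads of the 6 ABCC genes (vertical axis, from 0) against zeitgeber time in hours, with each control library as a circle and each mutant library as a triangle and lines through the means of 2 mice. Abcc4 is highest at ZT14 in both genotypes, and the Abcc3 reads at ZT6 and ZT18, 0 to 27, lie below all those at the other times, 52 to 308.

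Abcc3 was the 1 member that edgeR's test called between the ZT6 and ZT18 libraries, where it had 0 to 27 reads, and the others, where it had 52 to 308. Its control reads there were 9 and 9 at ZT6 and 7 and 27 at ZT18, and its mutant reads were 0 and 6 at ZT6 and 13 and 2 at ZT18. At the other times, control mice of ZT2 had 279 and 87 reads, those of ZT10 201 and 155, those of ZT14 52 and 134, and those of ZT22 280 and 308. Mutant mice of ZT2 had 181 and 300 reads, those of ZT10 189 and 193, those of ZT14 150 and 235, and those of ZT22 130 and 298. The 8 and 16 values do not overlap, in either genotype, and 2.38% of all genes tested likewise had all 8 libraries below the other 16. The log2 fold change of the 8 over the 16 was -4.43 (SE 0.39, 95% interval -5.23 to -3.63), with an edgeR adjusted p = 1.34e-10. Of all genes, 16.7% were called in this comparison, 10.9% as lower and 5.85% as higher. Of the 6 members 1 was called, Abcc3, as lower, and it ranked behind 92 genes of the 15493 by p. In controls alone the log2 fold change was -3.84 (95% interval -4.89 to -2.79, edgeR adjusted p = 2.15e-05), and in mutants alone it was -5.25 (95% interval -6.25 to -4.25, edgeR adjusted p = 7.37e-08).

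Microglia markers moved with Abcc3. All 7 of them (Cx3cr1, P2ry12, Csf1r, Tmem119, C1qa, C1qb and Aif1) were lower in the ZT6 and ZT18 libraries by the same test, and none was at 0 throughout those 8 libraries. The median of Abcc3 was 191 reads in the other 16 libraries and 8 in these 8, a ratio of 23.9, and the median of the summed microglia markers was 13869 and 785 reads, a ratio of 17.7. Per 1000 microglia marker reads there were 0 to 22.8 Abcc3 reads in the ZT6 and ZT18 libraries (median 10.2) and 5.26 to 20.9 in the others (median 15.5), so these ratios overlap where the reads do not. Astrocyte markers (5 of 6), oligodendrocyte markers (5 of 6), neuron markers (6 of 6), choroid plexus and ependyma markers (3 of 4) and red blood cell markers (5 of 5) were also lower in these libraries, while endothelial markers (6 of 8), pericyte markers (7 of 8) and smooth muscle markers (5 of 5) were higher. Of 4 tested fibroblast markers 0 were called, and 1 oligodendrocyte marker was at 0 throughout the 8 libraries. The part of any of these cell types in the Abcc3 values was not tested, and in sorted bulk samples fewer cells of a type and less RNA per cell cannot be told apart. By the paper's methods, myelin was removed with beads, CD90-positive cells were depleted, and CD31-positive cells were sorted and checked for purity.

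**Figure D4:**
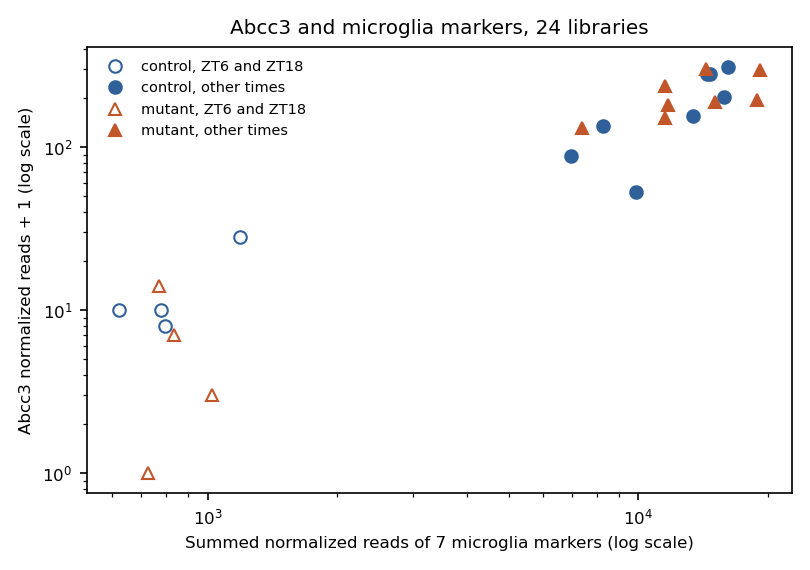
Abcc3 reads plus 1 against the summed reads of 7 microglia markers, both on log scales, in each library, with ZT6 and ZT18 libraries as open symbols. The open symbols lie at 621 to 1184 marker reads and 0 to 27 Abcc3 reads, and the filled ones at 6968 to 19170 marker reads and 52 to 308 Abcc3 reads.

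None of the other 5 members was called by edgeR between these sets of libraries. Abcc5 had 470 to 685 reads in the ZT6 and ZT18 libraries (median 538.5) and 513 to 824 in the others (median 633.5), with a log2 fold change of -0.25 (SE 0.10, 95% interval -0.45 to -0.06). Its edgeR adjusted p of 0.0705 missed the threshold, while DESeq2 called it at an adjusted p of 0.0450 and the stricter filter of 10 reads in all libraries at 0.0323. Abcc1 (-0.05), Abcc4 (0.01), Abcc6 (0.04) and Abcc10 (-0.16) had 95% intervals that cross 0, the widest being that of Abcc10, -0.89 to 0.56. For Abcc10 the log2 fold change was -0.94 in controls alone (SE 0.57) and 0.47 in mutants alone (SE 0.40), and whether these differ was not tested. Abcc9 went the other way, from a median of 1158.5 reads to 1706.5, a log2 fold change of 0.52 (SE 0.13, edgeR adjusted p = 0.00328), and the summed pericyte markers, of which Abcc9 is one, were 13095 to 22034 against 9630 to 17393 reads. In controls alone the difference of Abcc9 was 0.35 (edgeR adjusted p = 0.331), and in mutants alone it was 0.70 (edgeR adjusted p = 0.00503).

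Genes that make, conjugate or hydrolyse the substrates of these transporters, together with genes of the oxidative stress response (NRF2 pathway), were read as 6 lists. By genotype, 0 genes of any list were called by edgeR; the largest number with an unadjusted p under 0.05 was 3 of 17 phosphodiesterases, namely Pde10a, Pde7b and Pde4b, where 6.95% of all genes had one. For a rhythm difference, 0 genes of any list were called by edgeR, with at most 2 of 17 glutathione S-transferases at an unadjusted p under 0.05, where 4.26% of all genes had one. Sult1a1, a sulfotransferase, passed the meta2d threshold in controls (p = 0.00154, n = 12, q = 0.588), with 49 to 402 reads, a fitted peak at ZT 12.9 and a relative amplitude of 71.1%. In mutants its values were close to these, with 47 to 508 reads, a fitted peak at ZT 13.1 and a relative amplitude of 71.4% (p = 0.00271, n = 12), and its q was 0.808. It was the single list gene that passed in either genotype, where 0.31% of all genes passed in controls and 0.0387% in mutants. With 1 library left out, 0 to 82 genes passed in controls, so the call of Sult1a1 was lost without at least 1 of the libraries.

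In the ZT6 and ZT18 libraries the lists held more calls, to be read against the 16.7% of all genes. Cell type markers moved in the same libraries as every list gene below: from the other 16 libraries to these 8, median summed reads went from 13869 to 785 for microglia, from 12097 to 4697.5 for astrocytes, from 9747 to 3356 for oligodendrocytes and from 425.5 to 93 for neurons, and from 1836.5 to 5733 for smooth muscle. Their part in the changes of the lists was not tested. Of 14 genes of leukotriene and prostaglandin handling, whose products are carried by Abcc1 and Abcc4, 7 were lower and 1 was higher, and the median log2 fold change was -0.86 against -0.01 for all genes. Alox5, which makes leukotrienes, was at 0 to 3 reads against 3 to 105, so it passed the filter on low reads through the other libraries alone and could only come out lower, which leaves 6. Hpgd, which degrades prostaglandins, fell from a median of 297.5 to 26.5 reads, and Ptgs1, a cyclooxygenase, from 418.5 to 173.5. Ptgds, the prostaglandin D synthase, fell from 330.0 to 71.5.

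Of 17 cyclic nucleotide phosphodiesterases, which break down the cyclic AMP and cyclic GMP that Abcc4 and Abcc5 export, 5 were higher and 3 lower, with a median log2 fold change of 0.32. Pde3b fell from a median of 825 to 57.5 reads, Pde4a from 77 to 31 and Pde1b from 70.5 to 16.5, while Pde3a rose from 159 to 334.5. Markers of several cell types moved in the same libraries. Of 9 tested genes of glucuronidation and sulfation, 4 were lower and 0 higher. Of these 4, Ugt1a7c and Sult1c2 had under 5 reads in each of the 8 libraries, so they too passed the filter through the other libraries alone, which leaves 2. Ugt1a7c was listed at 0 in all 8 libraries against 8 to 73 reads, at least 8.83-fold lower by the medians with a floor of 3 reads per library, and it shares exons with other Ugt1a genes, so its reads are uncertain. Sult1c2, Ugt8a and Sult4a1 fell from medians of 8.5, 18 and 24 reads to 0, 4 and 6.5, again where markers of several cell types moved.

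Of 17 genes of the NRF2 pathway, the oxidative stress response that acts through the antioxidant response element, 3 were higher and 3 lower, with a median log2 fold change of -0.21. Fth1, a ferritin subunit, fell from a median of 3619.5 to 2139 reads and Tkt, a transketolase, from 481.5 to 342.5, in the libraries where markers of several cell types moved. The small MAF genes Mafk and Maff rose from 413 to 600.5 and from 164 to 272. Of 17 tested glutathione S-transferases, 2 were lower and 1 higher, with a median log2 fold change of 0.07: Gstm5 and Gstcd fell from medians of 110 and 59.5 to 78 and 36 reads, and Gsta4 rose from 746.5 to 864. Of 11 tested genes of glutathione synthesis and recycling, 1 was called: Slc7a11, the cystine importer, fell from a median of 90 to 40.5 reads. The median over that list was -0.12.

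**Figure D5:**
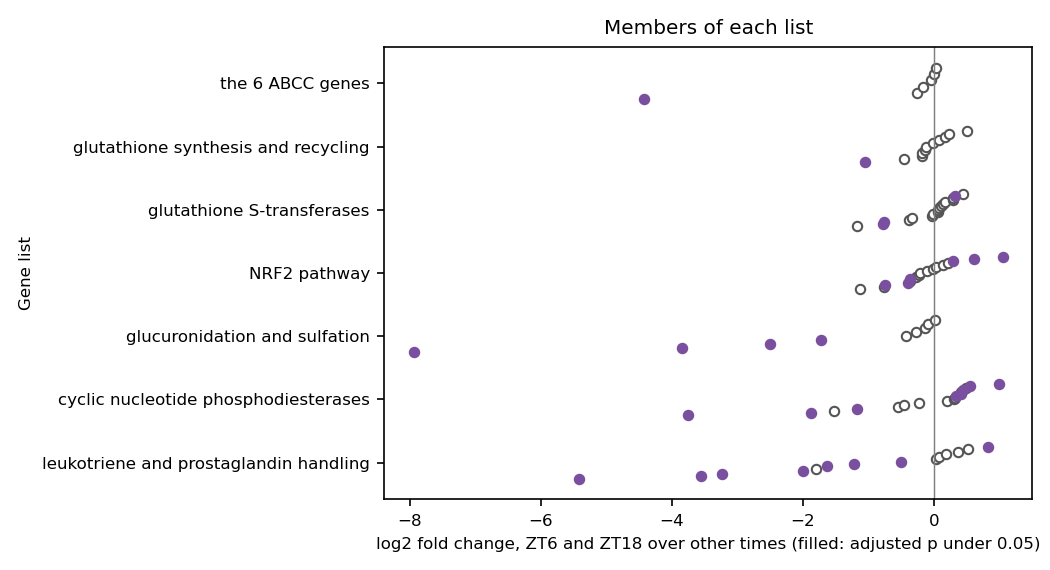
Log2 fold change of the 8 ZT6 and ZT18 libraries over the other 16 for the 6 ABCC genes and for the tested genes of 6 lists, with filled points for genes at an edgeR adjusted p under 0.05. Among the ABCC genes Abcc3 alone is filled, at -4.43, and 7 of 14 genes of leukotriene and prostaglandin handling are filled to the left of 0.

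The genes whose reads varied most like each member were sought over the 24 libraries among 7712 genes, after the means of the ZT6 and ZT18 libraries and of the others were each taken out. The points share libraries and normalization, and no test was made. For Abcc4 they were Tbc1d4 (Pearson's r = 0.864), Xdh (0.856) and Qsox1 (0.849), and for Abcc3 Arsb (0.801), Nfam1 (0.797) and Rab3il1 (0.785). For Abcc6 they were Hmcn1 (0.783), Myo10 (0.764) and 2010111I01Rik (0.749), and for Abcc1 Wdr33 (0.809), Wdr7 (0.782) and Ccdc86 (0.735). For Abcc10 they were Pi4k2a (0.776), Zfp410 (0.724) and Pcif1 (0.710), and for Abcc5 Mplkip (0.698), Trim65 (0.698) and Socs5 (0.684). Among the 6 members themselves the values of r lay between -0.48, for Abcc3 with Abcc5, and 0.27, for Abcc1 with Abcc3.

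By position in GRCm38, Abcc1 and Abcc5 lie on chromosome 16, at 14361558 to 14475737 on the plus strand and 20331303 to 20426394 on the minus strand. The others lie on minus strands: Abcc3 at 94343295 to 94392997 of chromosome 11, Abcc4 at 118482692 to 118706219 of chromosome 14, Abcc6 at 45967555 to 46030302 of chromosome 7, and Abcc10 at 46303221 to 46328352 of chromosome 17.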

How the data were processed

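The authors aligned strand-specific total RNA libraries (SMARTer Pico kit) to GRCm38 with STAR 2.5.3a, merged 3 lanes with SAMtools 1.3.1, and counted and normalized Ensembl genes with PORT. The deposited counts are whole numbers of reads brought to similar totals, so counting error can be judged only from normalized reads. All 24 sample columns were used and mapped by their labels, 1 mouse each. The p-values measure the spread between mice. In the ZT6 and ZT18 comparison and in the order of levels, which pool time points, that spread also holds differences between times. The members and gene lists were chosen with earlier results of these data known.

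Tests on all 15493 genes used edgeR 4.0.16 in R 4.3.3 (TMM, quasi-likelihood), with DESeq2 1.42.0 as an alternative, and Benjamini-Hochberg adjustment; meta2d was recoded (Python 3.11.15, NumPy 2.4.6). Reads per kb used the union of GENCODE exons on GRCm38 (pseudocount 0.1 in log ratios). Genes named are the members, the other ABCC genes, up to 4 called genes per list with the smallest p, and 3 most similar genes per member with a mean of at least 100 reads. The fits were tested on simulated counts with the common biological coefficient of variation, 42.4% (members: 13.8% for Abcc4 to 55.8% for Abcc10). EdgeR recovered 60.5% of 2-fold genotype differences, 96.4% of 4-fold ZT6 and ZT18 differences and 32.5% of rhythm differences at 80% amplitude. Meta2d at q under 0.6 recovered 44.5% of control rhythms at that amplitude, and 29.4% of its calls were false. A gene without a call may therefore still have changed. One marker gene is not reported here.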

Additional observations from a re-analysis of the deposited data

Results flagged for a closer look

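In 2 of 24 sets of 4 or 8 libraries (each member in the ZT6 and ZT18 or in the other libraries of a genotype, which pools time points), 1 library lay far from the rest by Dixon's ratio; chance gives about 1 in 20. Abcc3 had 27 reads in control ZT18 library 2 against 7 to 9 in the other controls of ZT6 and ZT18 (a gap of 0.90 of the range). Abcc10 had 89 reads in control ZT2 library 1 against 18 to 42 in the other controls outside ZT6 and ZT18 (0.662 of the range). That library shares its separate run of library numbers only with the mutant ZT14 libraries.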

How the results depend on the processing

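Of the members, 0 were called by genotype or for a rhythm difference under any alternative, and 0 for a rhythm in either genotype. In the ZT6 and ZT18 comparison Abcc3 was called in all 31 alternatives that tested it (log2 fold change -5.25 to -3.84), and the stricter filter of 10 reads in all libraries left out Abcc3 and Abcc10. With DESeq2, 2 members were called (Abcc5 added), and with 1 library left out 1 to 2 members; Abcc5 reached an adjusted p under 0.05 without control ZT10 library 1, mutant ZT6 library 1 or mutant ZT22 library 1.

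Signs turned for members that were not called. By genotype, Abcc4 was at 0.00199 without scaling and 0.0562 with the i5 index, Abcc1 at -0.24 with the i5 index and -0.21 within ZT6 and ZT18, and Abcc3 at 0.24 within the other times. The fit with the i5 index takes the genotype difference from ZT6, ZT14, ZT18 and ZT22 alone, because at ZT2 and ZT10 the index and the genotype coincide. With 1 library left out the ranges were -0.0487 to 0.0214 for Abcc4, -0.0443 to 0.145 for Abcc1, and -0.18 to 0.11 for Abcc3. Between the sets of libraries, Abcc4 was at -0.00378 with RLE size factors and with DESeq2, -0.0320 with the stricter filter and -0.00525 in mutants; Abcc6 was at -0.00477 with the stricter filter; Abcc1 was at 0.12 in controls and Abcc10, at -0.94 in controls, at 0.47 in mutants. With 1 library left out the ranges were -0.0195 to 0.0812 for Abcc4, -0.0364 to 0.129 for Abcc6, -0.119 to 0.0416 for Abcc1 and -0.437 to 0.0318 for Abcc10. The cause was not tested. In the 8 control libraries outside ZT6 and ZT18, an alternative added after the data were seen, the 6 members came in the same order of mean level. In the 4 control libraries of ZT6 and ZT18 they did not. There Abcc3 came last, at 2.28 reads per kb, below Abcc1 at 9.19 and Abcc10 at 2.92.

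With the replicate block, the genotype difference of Abcc10 was 0.80 and the ZT6 and ZT18 difference of Abcc3 was -4.44, and no member's call changed; same-numbered libraries did not deviate together (correlations -0.00866 to 0.0149 over 6 time points). The count of all genes called by genotype, 42, was 99 with DESeq2, 141 without a filter, 7 with the i5 index, 3 and 28 within the 8 and the 16 libraries, and 25 to 68 with 1 library left out. For a rhythm difference it was 0, and 52 without a filter. Between the sets of libraries it was 2595, and 1624 with the stricter filter, 1064 in controls and 1535 in mutants. The genes past the meta2d threshold, 48 in controls and 6 in mutants, were 336 and 241 after centring within the 2 sets of libraries, and in mutants 24 after TMM rescaling and 43 with the stricter filter. With 1 library left out they were 0 to 82 and 0 to 24. The edgeR fit of a cosine called 14 genes in controls, 4 with the replicate block, and 0 in mutants with or without it. Low reads limit the values of Abcc10, at 5 to 110 reads, and of Abcc3 at ZT6 and ZT18, at 0 to 27.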
